A study of Mus musculus with 7 samples.

Results

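Nuclear genes for mitochondrial protein import and for respiratory chain assembly were followed in medullary thymic epithelial cells (mTECs) with and without a Cre transgene acting on Ikzf1, the gene of the zinc-finger transcription factor Ikaros. The members were chosen by name: every protein-coding gene whose symbol starts with Ndufaf, Chchd, Timm, Tomm or Coa followed by a digit, or is Cox followed by a number in the assembly-factor range. The rule found 55 genes among the 55536 in the table, of which 21963 are protein coding. A further 3 rows with matching names (Cox20-ps, Tomm6os and Chchd2-ps) were of other biotypes and stayed out. The family was proposed with its difference between the 2 groups of these libraries in view, so the differences given here for the members are a description and support nothing beyond themselves.

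RNA was sequenced from EPCAM-sorted mTECs, the epithelial cells of the inner thymus that display tissue antigens to maturing T cells, in 7 libraries. The 3 Cre-positive libraries (numbered 45, 76 and 80) came from Cre(+) Ikzf1 fl/fl Pou2f3-/- mice, and the 4 Cre-negative libraries (46, 48, 75 and 77) from Cre(-) Ikzf1 fl/fl Pou2f3-/- mice. Both groups therefore lacked Pou2f3, the regulator of tuft cells, and both carried floxed Ikzf1. The series set out to read the effect of Ikaros loss without tuft cells. Which promoter drives Cre, and which Ikzf1 exon is floxed, is not given in the sources used here. The labels do not tie each library number to an animal of its own, and p-values therefore measure only the spread between these samples, which may be technical.

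Almost all mitochondrial proteins are made in the cytosol and pass the outer membrane through the TOM complex. From there the TIM23 complex takes proteins with a presequence into the matrix, the TIM22 complex inserts carrier proteins with the help of small TIM chaperones, and the MIA pathway folds small cysteine-rich proteins in the intermembrane space. Respiratory complexes I and IV are then built with assembly factors that are absent from the finished enzyme. These roles come mostly from yeast and human cells. As background for this tissue, mTECs transcribe an unusually wide range of genes under the regulator Aire.

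Short promoter stretches are shown for 4 of the members with the steadiest differences, because these stretches hold a motif of a factor known to drive mitochondrial genes in other cells. RefSeq promoter windows on GRCm38.p6, reaching 250 bases before to 50 bases after the gene start, matched 46 of the 55 members. In the lines that follow, 60 bases are printed 5′ to 3′ on the gene's own strand. Capitals mark the NRF1 motif (GCGCA and GCGC with 1 base of any kind between them), or its reverse complement, in Chchd4, Ndufaf4 and Tomm20, and the ETS motif CCGGAAG, here as its reverse complement, in Timm10. The stretches lie at chr6:91473585-91473644 on the minus strand (Chchd4), chr4:24897945-24898004 on the plus strand (Ndufaf4), chr8:126945922-126945981 on the minus strand (Tomm20) and chr2:84826961-84827020 on the plus strand (Timm10).
Chchd4: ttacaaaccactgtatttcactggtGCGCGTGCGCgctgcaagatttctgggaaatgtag
Ndufaf4: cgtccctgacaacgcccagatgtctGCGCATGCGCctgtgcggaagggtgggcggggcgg
Tomm20: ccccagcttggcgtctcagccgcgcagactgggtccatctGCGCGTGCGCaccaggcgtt
Timm10: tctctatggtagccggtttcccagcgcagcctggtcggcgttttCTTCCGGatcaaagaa
The NRF1 match began 196 bases before the RefSeq start in Chchd4, 113 before it in Ndufaf4 and 20 before it in Tomm20. The ETS match in Timm10 began 16 bases before the start, and further ETS matches began 14 and 17 bases after it.

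Motifs were searched on both strands and may overlap one another. The NRF1 motif was present in 5 of the 46 member promoters (10.9%), against 7.49% of 16307 protein-coding promoters. The ETS motif, bound by factors such as GABP, was present in 19 member promoters (41.3%), against 13.3% of protein-coding promoters. Among the 13 matched members called higher in Cre-positive libraries (the threshold is given with the counts), 4 held the NRF1 motif: the 3 shown and Timm8b, where it began 19 bases after the start. The ETS motif was likewise in 4 of those 13. The E-box CACGTG was present in 8 member promoters (17.4%), of which 5 belonged to members called higher, against 9.21% of protein-coding promoters. The YY1 motif (AAGAT directly followed by GGCGG) was present in 3 (6.52%, against 1.48%), the TATA box TATAAA in 4 (8.7%, against 14.3%) and the CRE TGACGTCA in 1 (2.17%, against 2.67%). Member windows had a median GC content of 59.5%, against 57% in protein-coding windows. These matches describe letters in the windows and not bound sites.

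The libraries held 11383465 to 11623062 reads on genes in the Cre-positive group and 9815958 to 12599078 in the Cre-negative group. Genes of the mitochondrial genome took 6.40 to 6.94% of reads in Cre-positive libraries and 4.77 to 5.41% in Cre-negative libraries. Of these genes, mt-Co2, mt-Co3, mt-Atp6, mt-Atp8 and mt-Nd4l were at 0 in every library, so the shares do not measure the whole mitochondrial genome. Genes with at least 10 reads numbered 17169 to 18014 in Cre-positive libraries and 19417 to 20467 in Cre-negative libraries. Cre-negative 48 stood apart: 4 Y-linked genes summed to 3938 normalized counts there, and to at most 1 in each of the other 6 libraries. Ikzf1 itself had 1310.3, 1828.6 and 1677.5 normalized counts in Cre-positive 45, 76 and 80, and 1118.7, 1149.5, 1146.8 and 1219.0 in Cre-negative 46, 48, 75 and 77. With the deleted exon unknown, its level does not check the labels. Of the mTEC markers, Epcam and Aire were present in every library and Ccl21a was at 0 in all 7. Summed markers are given as ranges in Cre-positive and then Cre-negative libraries. The mTEC markers summed to 81444 to 109146 and 64142 to 113716, mostly from H2-Aa (means 73371 and 71624). Of 8 tested, 2 were called higher, Krt14 (log2 fold change 1.51) and Krt5 (0.59). The 4 called lower were Cd80 (-1.87), Cldn4 (-1.56), Foxn1 (-1.02) and Aire (-0.56). Cortical epithelium markers summed to 17582 to 27030 and 16262 to 19274. Of these 6, 5 had log2 fold changes below 0, and 1 was called higher, Ctsl, and 1 lower, Ccl25. Macrophage and dendritic cell markers summed to 7429 to 11330 and 5216 to 7001, mostly from Lyz2 (means 8367 and 5180). Of these 7, only Lyz2, called higher, had a log2 fold change above 0. Adgre1 (-2.91) and Itgam (-2.30) were called lower. Fibroblast and endothelial markers summed to 361.2 to 650.0 in Cre-positive and 628.8 to 934.7 in Cre-negative libraries (of 6, 2 were called lower), and the T lineage to 556.3 to 2385 and 765.6 to 1328. B lineage markers summed to 200.6 to 423.5 in Cre-positive and 159.4 to 341.2 in Cre-negative libraries, tuft markers to 364.8 to 610.9 and 305.4 to 502.6, and markers of cycling cells to 4697 to 8505 and 3650 to 7103. The part of these differences in the members' values was not tested. In bulk samples, fewer cells of a type and less RNA per cell cannot be told apart.

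Of the 54 members tested, 47 had a log2 fold change (Cre-positive over Cre-negative) above 0, and 16 passed the threshold as higher in Cre-positive mTECs. Values are the deposited normalized counts, in which each library is scaled by its size factor. A gene was called when its Benjamini-Hochberg adjusted p was under 0.05 in limma on log2(normalized count + 1), over all 22878 genes with a mean of at least 5. By this rule 16 members were called higher, 1 lower and 37 were not called. Over all genes tested, 4.66% were called higher, 9.11% lower and 13.8% in either direction. Of all genes tested, 45.3% had a log2 fold change above 0. The median was 0.60 in the members and -0.10 in all genes tested. Protein-coding genes in the middle 50% of the members' levels, 4514 in number, had a median of 0.07, and 8.64% of them were called higher and 7.47% lower. For 29 members every Cre-positive value lay above every Cre-negative value and for 3 every one lay below, against 10.8% and 14.5% of all genes tested. Since the family was proposed from this contrast, nothing is read from the distance between these shares.

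The counts of calls depended on single libraries. When 1 library was left out, the members' median log2 fold change ranged from 0.47 to 0.67 (0.60 with all 7). Members called higher numbered 4, 8 and 6 without Cre-positive 45, 76 and 80, and 8, 8, 11 and 9 without Cre-negative 46, 48, 75 and 77. The share of all genes called higher fell as well in each of these fits, to 2.72%, 2.92% and 2.61% without Cre-positive 45, 76 and 80, and to 2.96%, 3.44%, 4.48% and 3.68% without Cre-negative 46, 48, 75 and 77. Of all 55 members, 36 (65.5%) had their lowest of the 7 values in Cre-negative 48, against 16.2% of all genes tested. Cre-positive 80 held the highest value of 28 members (50.9%, against 19.3% of all genes tested), and Cre-positive 45 that of 16 (29.1%, against 13.4%). The Y-linked level was 3938 normalized counts in Cre-negative 48. It was 0.8, 0.9 and 1 in Cre-negative 46, 75 and 77, and 0 in every Cre-positive library. A term for its log2 value therefore mostly marks Cre-negative 48, but it also differs between the groups in the other libraries. With this term for the Y-linked level in the fit, 3 members were called higher (Chchd4, Timm10 and Timm21), against 2.44% of all genes, and none lower, against 5.91%. Scaling by the library total instead of the size factor called 5 members higher (those 3, Ndufaf4 and Tomm20), against 2.52% of all genes, and 2 lower, against 11.4%. On the recovered reads, DESeq2 called 16 members higher (6.11% of all genes; 11.7% lower) and edgeR 14 (5.06%; 8.68% lower). Library total scaling moved the median of all genes to -0.30 and that of the members to 0.40. The labels' numbers fall into 2 ranges, and the values within each were as follows. In numbers 45 to 48 (1 Cre-positive, 2 Cre-negative) 47 of 54 members lay above 0, against 45.8% of all genes tested, with a median of 0.69 in the members and -0.10 in all genes. In numbers 75 to 80 (2 of each) 49 did, against 45.9% of all genes tested, with medians of 0.51 and -0.09.

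Summed over the 55 members, Cre-positive 45, 76 and 80 held 76683.5, 71108.6 and 75538.7 normalized counts, and Cre-negative 46, 48, 75 and 77 held 58577.8, 47816.5, 56071.3 and 55746.2. The groups did not overlap, and Cre-negative 48 was the lowest. As a share of library reads, which no size factor touches, the members took 0.645, 0.623 and 0.626% in the Cre-positive libraries and 0.555, 0.495, 0.529 and 0.549% in the Cre-negative libraries. The mean shares were 0.631 ± 0.0117% in Cre-positive (SD, n = 3) and 0.532 ± 0.0272% in Cre-negative libraries (SD, n = 4). The members' median coefficient of variation was 16.5% among Cre-positive and 23.8% among Cre-negative libraries.

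**Figure D1:**
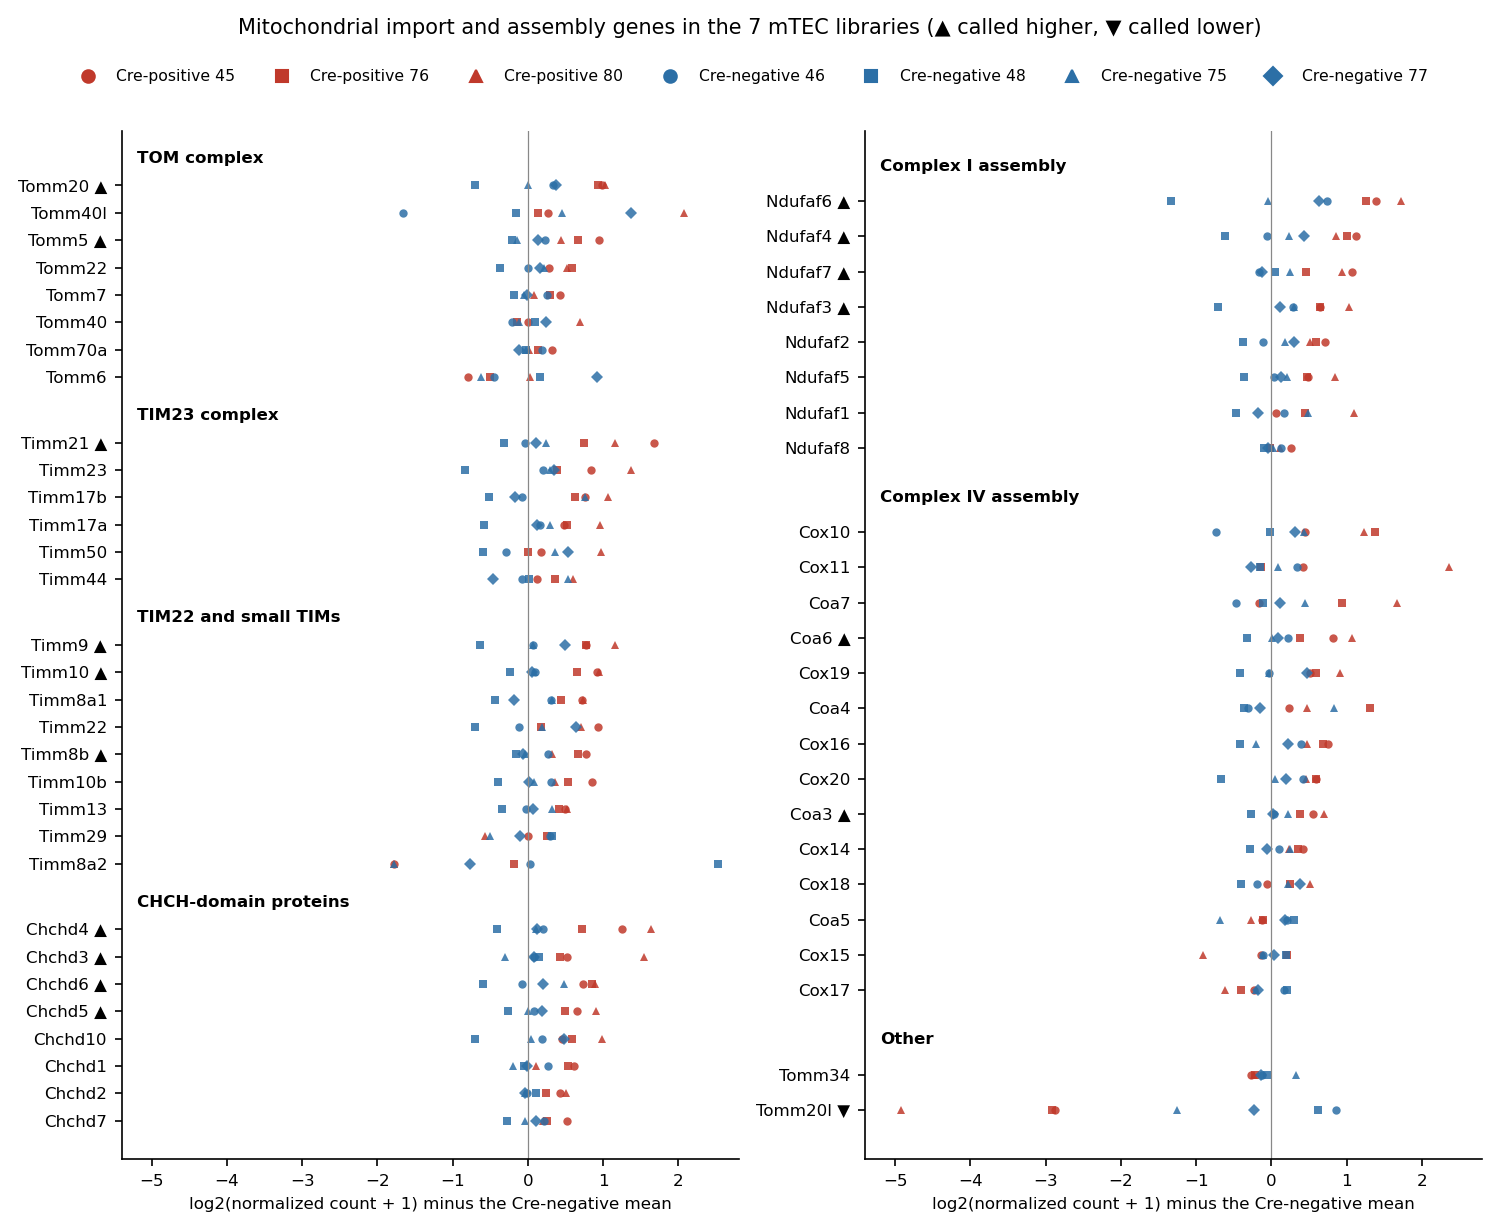
Each of the 55 members is plotted by role as log2(normalized count + 1) in each of the 7 libraries, minus the member's Cre-negative mean (x axis, log2 units; red Cre-positive, blue Cre-negative; triangles beside names mark the 16 members called higher and the 1 called lower). Most red points lie right of 0 and Cre-negative 48 (blue squares) is the leftmost point of many rows, while Tomm20l runs far to the left in the Cre-positive libraries.

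Per kilobase of annotated exon, the most abundant members in Cre-positive libraries were Timm8b, with a mean level of 7363 normalized counts per kb (4906 in Cre-negative), Tomm7 with 7097 (5897 in Cre-negative), Chchd1 with 5733 (4273), Cox14 with 5379 (4290) and Chchd2 with 4591 (3503). The same 5, with Timm13 and Coa3, were the 7 highest in Cre-negative libraries. Of those 7, Timm8b and Coa3 were called higher, and their log2 fold changes ran from 0.27 to 0.58. Of 33 members with a mean of 100 to 1000 normalized counts 11 were called higher (median log2 fold change 0.67), and of 16 above 1000 it was 5 (median 0.47). The 6 members under 100 (Cox11, Timm8a1, Tomm40l, Tomm20l, Tomm6 and Timm8a2) held the only lower call and none higher. Per kilobase, Tomm40l stood at 6.77 in Cre-positive and 3.94 in Cre-negative libraries, and Tomm6 at 3.92 and 5.99.

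In the TOM complex, the entry gate of the outer membrane, 2 of 8 members were called higher, and the members' summed normalized counts averaged 13795 ± 1034 in Cre-positive (SD, n = 3) and 10696 ± 1302 in Cre-negative libraries (SD, n = 4). Tomm20 (chr8:126930667-126945844), a receptor for presequences, had 1201.7, 1150.6 and 1237.3 normalized counts in Cre-positive 45, 76 and 80, and 765.1, 372.3, 602.7 and 781.6 in Cre-negative 46, 48, 75 and 77. Its Cre-positive values were close together and all above the Cre-negative ones, of which library 48 was far below the rest. On the log2 scale the fold change was 0.98 (SE 0.25), and the call was lost in limma without Cre-positive 45 or 80 (adjusted p = 0.0529 and 0.0508) and with the Y-linked term (adjusted p = 0.0534). Tomm5, a small subunit, averaged 1373 ± 244 in Cre-positive and 855.3 ± 126 in Cre-negative libraries, with no overlap. A log2 fold change of 0.68 (SE 0.19) lost its call without any of 5 libraries in turn (Cre-positive 45 and 76, Cre-negative 48, 75 and 77, limma adjusted p = 0.051 to 0.137). In those fits the log2 fold change was 0.55 to 0.72.

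The channel and the other TOM subunits were not called. Tomm40, the channel itself, had 166.1, 150.2 and 268.9 normalized counts in Cre-positive 45, 76 and 80, and 143.3, 177.3, 153.1 and 195.4 in Cre-negative 46, 48, 75 and 77. The groups overlapped and only Cre-positive 80 stood above the rest, so that the log2 fold change of 0.18 (SE 0.29) turned to -0.0717 without that library and to -0.0197 under library total scaling. Tomm70a, a receptor for carrier proteins, had 1214.2, 1062.5 and 986.1 in Cre-positive 45, 76 and 80, and 1106.2, 953.5, 951.3 and 893.3 in Cre-negative 46, 48, 75 and 77. These groups overlapped as well, with a log2 fold change of 0.16 (SE 0.17) that was -0.0484 under library total scaling. Tomm22, the central receptor, did not overlap between the groups (1678.2 to 2081.9 in Cre-positive, 1068.7 to 1609.8 in Cre-negative, log2 fold change 0.46). Tomm7, a small subunit, averaged 7984 ± 933 in Cre-positive and 6635 ± 882 in Cre-negative libraries, with overlap. Tomm40l, a relative of Tomm40, and Tomm6 were read at 17.0 to 68.5 and 3.1 to 6.2 normalized counts in Cre-positive libraries and at 4.2 to 41.4 and 3.6 to 12.4 in Cre-negative libraries. Both share most of their exon bases with other genes (64.3% and 100%), so their counts are uncertain.

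Tomm20l (chr12:71111428-71123221), a relative of the receptor Tomm20, was the only member called lower. It had 3.1, 3.0 and 0 normalized counts in Cre-positive 45, 76 and 80, and 53.6, 45.3, 11.7 and 24.8 in Cre-negative 46, 48, 75 and 77. These values stand for 6 reads over the Cre-positive libraries and 147 over the Cre-negative libraries, and the groups did not overlap. Tomm20l passed the minimum mean only through the Cre-negative libraries, where it averaged 33.9 ± 19.1, against 2.03 ± 1.76 in Cre-positive libraries. The log2 fold change of -3.57 (SE 0.87) moved with the pseudocount, from -4.00 at 0.5 to -2.34 at 5, and it was -2.90 without Cre-positive 80. The call was lost without Cre-negative 46 or 48 (limma adjusted p = 0.063 and 0.0536; 5.78% and 6.8% of all genes were then called lower), with the Y-linked term (0.0675) and in limma-voom (0.0891). Per kilobase, Tomm20 was read 56.9 and 56.3 times as highly as Tomm20l in Cre-positive 45 and 76, and 2.09, 1.21, 7.56 and 4.63 times as highly in Cre-negative 46, 48, 75 and 77. Tomm20l ends inside its neighbour on the other strand, Timm9, with which it shares 6.81% of its exon bases. Timm9 differed in the opposite direction. Tomm34, a cytosolic co-chaperone despite its name, had 334.4, 346.5 and 342.6 in the Cre-positive libraries, all below 366.0 to 502.7 in the Cre-negative ones, but the log2 fold change of -0.24 (SE 0.21) was not called.

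**Figure D2:**
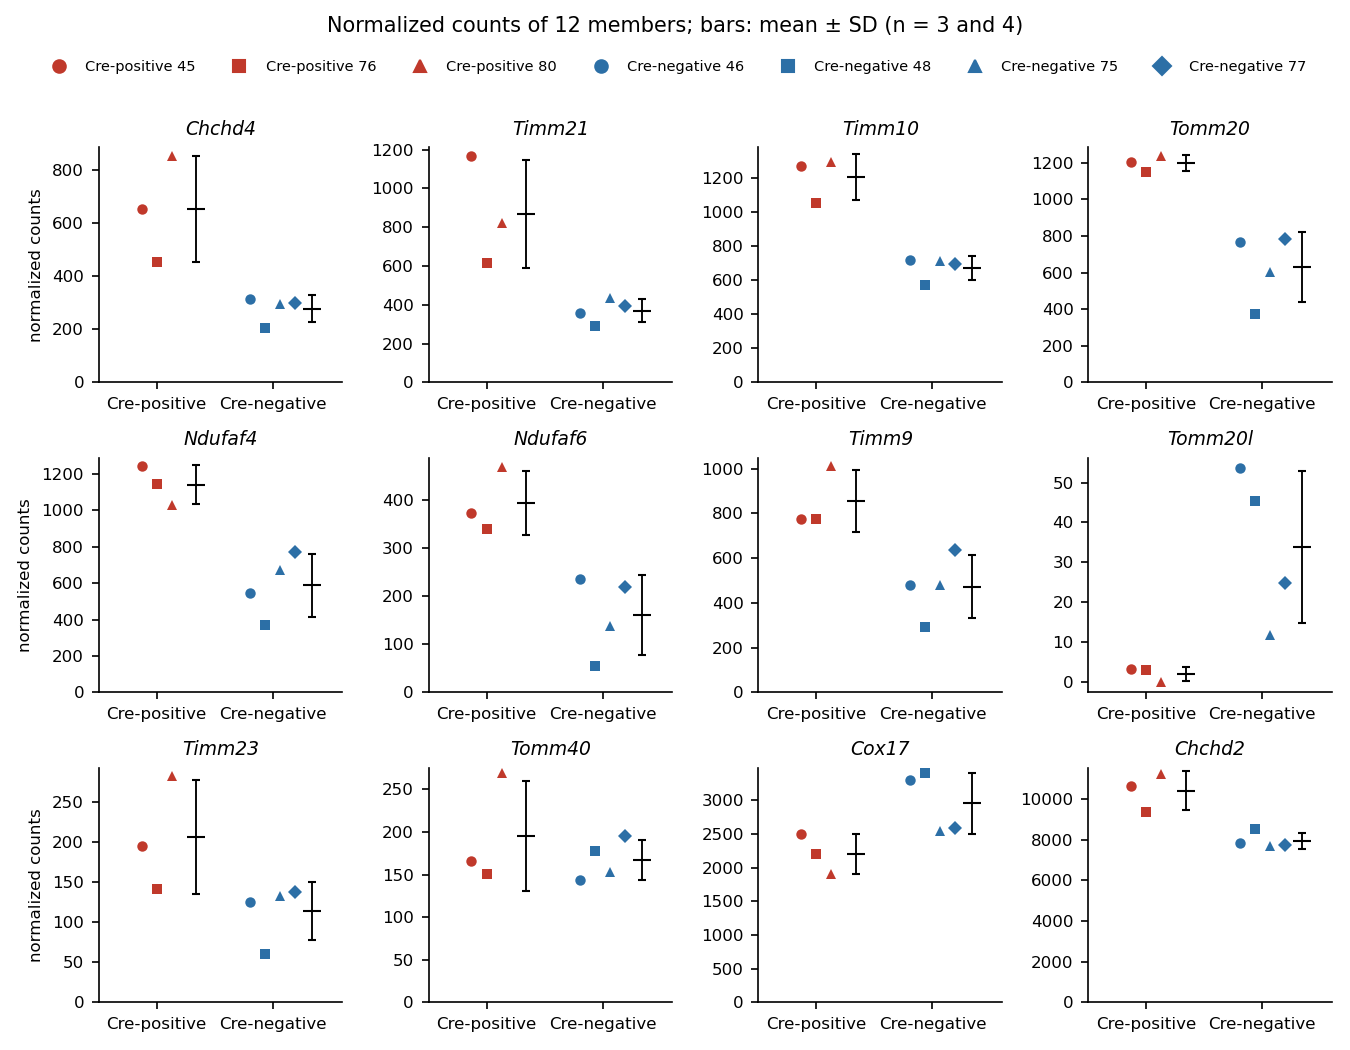
Normalized counts (y axis, from 0) of 12 members are plotted for the 3 Cre-positive (red, left) and 4 Cre-negative libraries (blue, right), with the mean ± SD of each group as a bar. Chchd4, Timm21, Timm10, Tomm20, Ndufaf4, Ndufaf6 and Timm9 separate with Cre-positive above, and Tomm20l separates with Cre-positive below. Timm23 and Chchd2 (Cre-positive above) and Cox17 (Cre-positive below) separate narrowly, and Tomm40 overlaps.

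In the TIM23 complex, the presequence translocase of the inner membrane, all 6 members had log2 fold changes above 0 (0.35 to 1.19, median 0.74), and 1 was called. Timm21, which couples TIM23 to TOM and to the respiratory chain, had 1167.2, 615.9 and 820.1 normalized counts in Cre-positive 45, 76 and 80, and 357.8, 292.5, 433.3 and 396.0 in Cre-negative 46, 48, 75 and 77. The Cre-positive libraries differed widely among themselves, yet the lowest of them lay above every Cre-negative library. Timm21 averaged 867.7 ± 279 in Cre-positive (SD, n = 3) and 369.9 ± 60.1 in Cre-negative libraries (SD, n = 4), and the log2 fold change was 1.19 (SE 0.24). The call held in all 17 alternatives of fit, scaling and libraries, with log2 fold changes of 0.96 to 1.42.

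The core of TIM23 was not called. Timm23, the channel, had 195.4, 142.2 and 282.3 in Cre-positive 45, 76 and 80, and 124.9, 60.1, 133.3 and 138.5 in Cre-negative 46, 48, 75 and 77. The groups separated by a narrow margin, and the log2 fold change was 0.87 (SE 0.37). Reads of Timm23 are uncertain, because 5 other genes hold near copies of it, among them Gm10273 with 99.91% identity over 95.57% of the transcript.

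Timm17a and Timm17b are paralogues of the subunit that lines the channel. Timm17a had 2640.6, 2708.8 and 3671.6 in Cre-positive 45, 76 and 80, and 2115.1, 1262.8, 2307.1 and 2056.4 in Cre-negative 46, 48, 75 and 77. Timm17b, on the X chromosome, had 755.5, 690.0 and 931.1 in Cre-positive 45, 76 and 80, and 422.4, 312.2, 754.9 and 397.0 in Cre-negative 46, 48, 75 and 77. Timm17a did not overlap between the groups, whereas for Timm17b Cre-negative 75 reached into the Cre-positive range. Their log2 fold changes were 0.66 (SE 0.22) and 0.82 (SE 0.27), and Timm17b was called without Cre-negative 75 (1.07, limma adjusted p = 0.0118). Per kilobase, Timm17a was read 1.13 to 1.28 times as highly as Timm17b in Cre-positive and 0.990 to 1.68 times in Cre-negative libraries. Timm44, which tethers the import motor, had 416.9, 491.7 and 580.3 in Cre-positive 45, 76 and 80, and 365.4, 387.1, 557.6 and 277.1 in Cre-negative 46, 48, 75 and 77. It overlapped between the groups (log2 fold change 0.35, SE 0.25), as did Timm50, the receptor of TIM23 (0.38, SE 0.32).

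Of the 8 tested members of the TIM22 route and its small TIM chaperones, 3 were called higher: Timm9, Timm10 and Timm8b. Timm10 (chr2:84826997-84830213), which forms the carrier-protein chaperone with Timm9, had 1269.6, 1050.5 and 1295.5 normalized counts in Cre-positive 45, 76 and 80, and 718.2, 569.3, 712.6 and 695.8 in Cre-negative 46, 48, 75 and 77. Both groups were tight and the gap between them was wider than either. Its log2 fold change of 0.84 (SE 0.18) kept its call in all 17 alternatives, over a range of 0.63 to 0.93. Timm9 (chr12:71123173-71136684) had 776.4, 775.1 and 1014.2 in Cre-positive 45, 76 and 80, and 478.5, 293.5, 478.4 and 637.9 in Cre-negative 46, 48, 75 and 77. The groups did not overlap, with Cre-negative 77 closest to the Cre-positive values. The log2 fold change of 0.90 (SE 0.25) lost its call without Cre-positive 45, 76 or 80 or Cre-negative 46, 48 or 75 (limma adjusted p = 0.0531 to 0.109). In those fits the log2 fold change was 0.69 to 0.96.

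Timm8b and Timm13 form the other small TIM chaperone. Timm8b had 4309.3, 3990.6 and 3142.2 normalized counts in Cre-positive 45, 76 and 80, and 3031.9, 2258.6, 2460.2 and 2414.1 in Cre-negative 46, 48, 75 and 77. Cre-positive 80 lay only just above Cre-negative 46. With a log2 fold change of 0.58 (SE 0.17), Timm8b was called, and its call was lost without Cre-positive 45 or 76 or Cre-negative 48, 75 or 77 (limma adjusted p = 0.0637 to 0.137). In those fits the log2 fold change was 0.49 to 0.57. Timm13 averaged 4208 ± 154 in Cre-positive and 3066 ± 575 in Cre-negative libraries without overlap (log2 fold change 0.48), and was called without Cre-negative 75 (0.58, limma adjusted p = 0.0427). Timm10b and Timm8a1 did not overlap either (log2 fold changes 0.58 and 0.63, not called), although a near copy makes Timm8a1 uncertain. Timm22, the carrier translocase channel, overlapped at 429.6 to 724.1 in Cre-positive and 232.5 to 590.3 in Cre-negative libraries. Timm29, a TIM22 subunit of animals, gave -0.10, and that sign turned without Cre-positive 80 (0.128) or Cre-negative 48 (0.0014), and with the Y-linked term (0.0356). Timm8a2 was too low to test, at 0, 2.0 and 0 in Cre-positive and 2.5, 18.7, 0 and 1.0 in Cre-negative libraries.

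Proteins with CHCH domains, the twin-cysteine fold that the MIA pathway oxidizes, gave 4 calls among 8 members, and all 8 log2 fold changes were above 0 (0.32 to 1.20). Chchd4 (chr6:91462172-91473546), the mouse counterpart of Mia40 and the oxidoreductase at the centre of the pathway, had 652.0, 452.6 and 850.2 normalized counts in Cre-positive 45, 76 and 80, and 315.1, 204.9, 293.7 and 296.7 in Cre-negative 46, 48, 75 and 77. Every Cre-positive library lay above every Cre-negative one, and Cre-positive 80 was the highest by far. The means were 651.6 ± 199 in Cre-positive (SD, n = 3) and 277.6 ± 49.4 in Cre-negative libraries (SD, n = 4), and the log2 fold change was 1.20 (SE 0.26). Chchd4 kept its call in all 17 alternatives, between 0.99 and 1.44. Gfer, the oxidase that recharges Mia40, was not a member and was called higher as well (log2 fold change 0.85, SE 0.23).

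Chchd3 and Chchd6 are subunits of MICOS, the complex that shapes the cristae. Chchd3 had 911.2, 856.2 and 1847.7 in Cre-positive 45, 76 and 80, and 672.1, 702.3, 511.7 and 674.1 in Cre-negative 46, 48, 75 and 77. The groups did not overlap, but Cre-positive 80 held over 2 times the count of the other two Cre-positive libraries. With a limma adjusted p of 0.0499 (log2 fold change 0.83, SE 0.26) Chchd3 was the called member nearest the threshold, and Timm17a, at 0.0614, the nearest uncalled one. Without Cre-positive 80 the value for Chchd3 was 0.47, and its call was lost without any one library other than Cre-positive 76 (limma adjusted p = 0.0506 to 0.188). Without Cre-positive 45 or any of the Cre-negative libraries in turn the value was 0.73 to 0.98. Chchd6 averaged 1938 ± 104 in Cre-positive and 1135 ± 344 in Cre-negative libraries without overlap (log2 fold change 0.82, SE 0.23). It lost its call without any of the Cre-positive libraries or Cre-negative 46, at log2 fold changes of 0.79 to 0.87 (limma adjusted p = 0.0608 to 0.0805). None of the 5 other MICOS genes tested was called (median log2 fold change 0.40).

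Chchd2 and Chchd10 are related proteins whose human genes are mutated in Parkinson's disease and motor neuron disease. Chchd2 had 10641.6, 9375.3 and 11234.7 in Cre-positive 45, 76 and 80, and 7846.3, 8528.1, 7699.6 and 7722.1 in Cre-negative 46, 48, 75 and 77. Chchd10 had 1148.4, 1259.8 and 1661.9 in Cre-positive 45, 76 and 80, and 957.0, 517.1, 863.9 and 1174.5 in Cre-negative 46, 48, 75 and 77. Chchd2 separated, with Cre-negative 48 the highest of its group, while Chchd10 overlapped by a small margin. Their log2 fold changes were 0.39 (SE 0.13) and 0.67 (SE 0.26), neither called. Chchd2 was called without Cre-negative 48 (0.42, limma adjusted p = 0.0469) and in limma-voom (0.0493), but 3 other genes hold near copies of it and its counts are uncertain. Chchd5, a small substrate of the MIA pathway, was called at 0.68 (SE 0.21), with 505.7 to 673.7 in Cre-positive and 298.5 to 409.4 in Cre-negative libraries. That call was lost without any of the 7 libraries in turn, at log2 fold changes of 0.57 to 0.78 (limma adjusted p = 0.0636 to 0.153). Chchd1, a protein of the mitochondrial ribosome (0.42), and Chchd7 (0.32) overlapped between the groups and were not called.

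Complex I assembly members gave 4 calls among 8, and their summed counts averaged 6689 ± 502 in Cre-positive (SD, n = 3) and 4265 ± 772 in Cre-negative libraries (SD, n = 4). Ndufaf6 (chr4:11051045-11076205), needed for an early membrane module in human cells, had 372.0, 338.5 and 467.1 normalized counts in Cre-positive 45, 76 and 80, and 234.6, 55.2, 136.9 and 219.2 in Cre-negative 46, 48, 75 and 77. No values crossed between the groups, and Cre-negative 48 was far below the others. Its log2 fold change of 1.46 (SE 0.43) was the highest of all members, and it was 1.02 without Cre-negative 48 and 0.87 with the Y-linked term. The call was lost with that term (limma adjusted p = 0.117), under library total scaling (limma adjusted p = 0.0586) and in edgeR (adjusted p = 0.0533). It was also lost without Cre-positive 45, 76 or 80 or Cre-negative 75, at log2 fold changes of 1.33 to 1.56 (limma adjusted p = 0.0687 to 0.108).

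Ndufaf3 and Ndufaf4 bind each other on an early part of complex I. Ndufaf4 (chr4:24898083-24905001) had 1243.5, 1146.6 and 1029.7 in Cre-positive 45, 76 and 80, and 547.2, 369.4, 670.2 and 772.3 in Cre-negative 46, 48, 75 and 77. Its groups were well apart, with a log2 fold change of 0.997 (SE 0.24) that was called in 15 of the 17 alternatives. The exceptions were the fit without Cre-positive 45 (0.93, limma adjusted p = 0.0574) and the fit with the Y-linked term (0.72, 0.0538). Ndufaf3 ranged from 1673.4 to 2195.5 in Cre-positive and from 655.0 to 1323.3 in Cre-negative libraries, with Cre-negative 48 at the low end. Its log2 fold change of 0.78 (SE 0.24) was called, but not without any one library other than Cre-negative 75 (limma adjusted p = 0.0594 to 0.155). In those fits the log2 fold change was 0.54 to 0.87. Ndufaf7, a methyltransferase for a complex I subunit, was called at 0.82 (SE 0.23), with 366.5 to 561.1 in Cre-positive and 238.8 to 316.2 in Cre-negative libraries. It lost its call without Cre-positive 45 or 80 or Cre-negative 46, 48 or 77, at log2 fold changes of 0.70 to 0.84 (limma adjusted p = 0.0561 to 0.133).

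The other 4 complex I assembly members were not called. Ndufaf1, part of the membrane-arm assembly complex, had 229.9, 299.4 and 473.3 in Cre-positive 45, 76 and 80, and 246.4, 157.6, 309.0 and 193.3 in Cre-negative 46, 48, 75 and 77. The groups overlapped, and Cre-positive 80 was the highest (log2 fold change 0.54, SE 0.31). Ndufaf2 and Ndufaf5, a late factor and a hydroxylase, each had a log2 fold change of 0.60 without overlap between the groups, and Ndufaf2 shares 65.6% of its exon bases with other genes. Ndufaf8, the partner of Ndufaf5 in human cells, gave 0.12 (SE 0.17), and -0.0807 under library total scaling.

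In complex IV assembly, 2 of 14 members were called, the lowest share of the 6 complexes and routes, and the spread of log2 fold changes reached from -0.42 to 1.02. Coa3, which holds the newly made core subunit encoded by mt-Co1, had 2602.9, 2306.3 and 2889.9 normalized counts in Cre-positive 45, 76 and 80, and 1826.0, 1472.6, 2064.7 and 1801.0 in Cre-negative 46, 48, 75 and 77. All Cre-positive values were above all Cre-negative ones, with a log2 fold change of 0.54 (SE 0.17). That call was lost without any one library other than Cre-negative 75, at log2 fold changes of 0.45 to 0.62 (limma adjusted p = 0.0625 to 0.145). Coa6, a factor for the copper site of the second core subunit, was called at 0.76 (SE 0.22), with 666.9 to 1074.4 in Cre-positive and 408.8 to 595.0 in Cre-negative libraries. It lost its call without any one library other than Cre-positive 76, at log2 fold changes of 0.60 to 0.83 (limma adjusted p = 0.0529 to 0.132). Cox14, which acts on the same newly made subunit as Coa3, was not called (log2 fold change 0.34), and its groups overlapped.

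The copper and heme factors had log2 fold changes of both signs. Cox17, the copper carrier of the intermembrane space, had 2497.4, 2208.1 and 1910.0 in Cre-positive 45, 76 and 80, and 3298.4, 3398.2, 2540.4 and 2593.0 in Cre-negative 46, 48, 75 and 77. It was the most counted of the 7 tested members with a log2 fold change below 0. Every Cre-positive value was below every Cre-negative value, though by only a small margin between Cre-positive 45 and Cre-negative 75. Its log2 fold change of -0.42 (SE 0.17) was not called with the size factors, but was called lower under library total scaling (-0.62, limma adjusted p = 0.0304). Cox19 and Cox11, which also take part in copper delivery, had log2 fold changes of 0.68 and 0.88, and neither was called. For Cox11 the value rests on Cre-positive 80, with 23, 16 and 92 reads in Cre-positive 45, 76 and 80 and 14 to 27 in the Cre-negative libraries, and 48.3% of its exon bases are shared with other genes. Cox19 was called without Cre-negative 77 (0.83, limma adjusted p = 0.0402).

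Cox10 and Cox15 make heme A in consecutive steps. Cox10 had 105.5, 201.3 and 181.7 in Cre-positive 45, 76 and 80, and 46.1, 75.8, 104.5 and 96.2 in Cre-negative 46, 48, 75 and 77. Cre-positive 45 was barely above Cre-negative 75, and the other two Cre-positive libraries were well above. With 1.02 (SE 0.39) it had the largest log2 fold change of the uncalled members. Cox15 gave -0.28 (SE 0.29) with overlap, and 0.0338 without Cre-positive 80, its lowest library. Cox16, Cox18 and Cox20, all tied to the second core subunit in human cells, gave 0.64, 0.24 and 0.55, and the counts of Cox16 and Cox20 are uncertain because they share 56.8% and 91.1% of their exon bases with other genes. Coa7 (0.82), Coa4 (0.67) and Coa5 (-0.17), factors of the intermembrane space, overlapped between the groups. Coa7 had 148.4, 321.5 and 534.6 in the Cre-positive libraries and 120.7 to 228.8 in the Cre-negative ones, and was called without Cre-positive 45 (1.31, limma adjusted p = 0.0293).

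**Figure D3:**
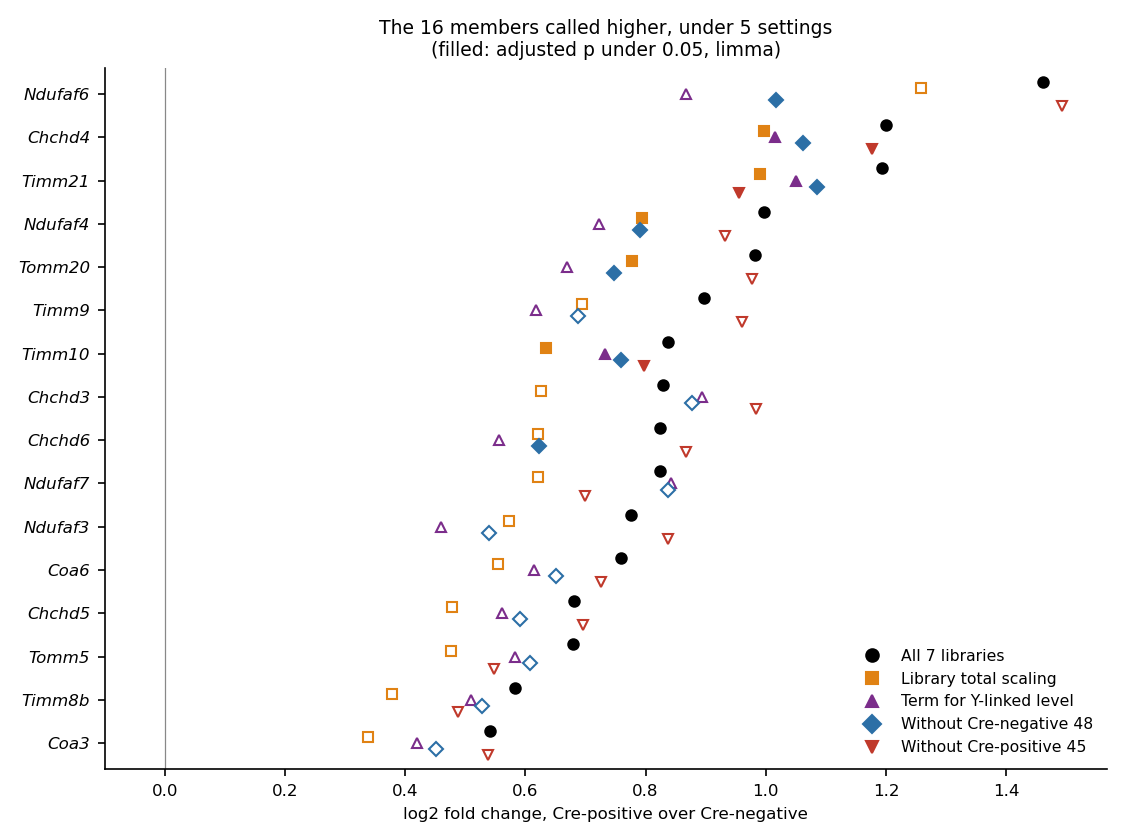
Log2 fold changes, Cre-positive over Cre-negative (x axis), of the 16 members called higher are shown for the fit of all 7 libraries and for 4 alternatives, filled where the limma adjusted p is under 0.05. All 80 points lie right of 0, and Chchd4, Timm21 and Timm10 are filled in all 5 settings.

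Related genes outside the family, from lists drawn up with earlier results of these data known, gave the following counts against the same background of 4.66% higher and 9.11% lower. Of 22 other import, processing and sorting genes, 4 were called higher and 1 lower (median log2 fold change 0.27). Mtx2, of the outer-membrane sorting machinery, averaged 1947 ± 254 in Cre-positive and 1059 ± 484 in Cre-negative libraries (log2 fold change 0.98). Mipep, a matrix peptidase that trims imported proteins, was lower, at 108.7 ± 34.4 in Cre-positive and 222.8 ± 28.8 in Cre-negative libraries (-1.06). None of the 9 other complex I assembly genes and none of the 4 complex V assembly genes was called (medians 0.36 and 0.64). Among 10 assembly genes of complexes II and III, Uqcc3 was called higher (0.54), and among 9 tested other complex IV assembly genes, Cmc1 was (0.69).

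Genes for the products that these factors handle were also counted. Of 84 tested nuclear respiratory chain subunits, 22 were called higher and 2 lower (median log2 fold change 0.41). The 2 lower ones, Cox7b2 and Cox6a2, were tissue-restricted forms. They had 0 and 10.8 ± 10.5 normalized counts in Cre-positive and 23.9 ± 20.6 and 92.4 ± 48.1 in Cre-negative libraries. Cox7b2 passed the minimum mean only through the Cre-negative libraries. Of 77 tested mitochondrial ribosomal proteins, 25 were called higher and none lower (median 0.61). Mrps24 averaged 2221 ± 81.1 in Cre-positive and 1055 ± 644 in Cre-negative libraries, and Mrps25 855.2 ± 196 and 415.9 ± 134. Of the mRNAs of the mitochondrial genome 8 were tested and 7 called higher (median 1.02). The mRNAs mt-Co2, mt-Co3, mt-Atp6, mt-Atp8 and mt-Nd4l were at 0 in every library and could not be tested. For mt-Co1, the subunit that Coa3 and Cox14 receive, the means were 66676 ± 3446 in Cre-positive and 27599 ± 6274 in Cre-negative libraries, a log2 fold change of 1.30. For mt-Nd3 they were 815.3 ± 131 and 301.6 ± 66.3, a log2 fold change of 1.45.

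Of 11 regulators of mitochondrial biogenesis, Tfam alone was called, at 1196 ± 137 in Cre-positive and 549.6 ± 167 in Cre-negative libraries (log2 fold change 1.16), and the median of the list was 0.14. Tfam packages and transcribes mitochondrial DNA. Of 11 tested genes of the mitochondrial stress response, 2 were called, both lower. Gdf15, a secreted stress factor, averaged 117.7 ± 17.6 in Cre-positive and 459.5 ± 120 in Cre-negative libraries (-1.93). Oma1, an inner-membrane protease that starts the stress signal, averaged 379.3 ± 54.1 in Cre-positive and 762.6 ± 104 in Cre-negative libraries (-1.01). Fgf21, a secreted stress hormone and the most counted gene of this list, was not called: it averaged 18513 ± 5567 in Cre-positive and 9068 ± 4171 in Cre-negative libraries, with no overlap (log2 fold change 1.14, limma adjusted p = 0.0504).

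**Figure D4:**
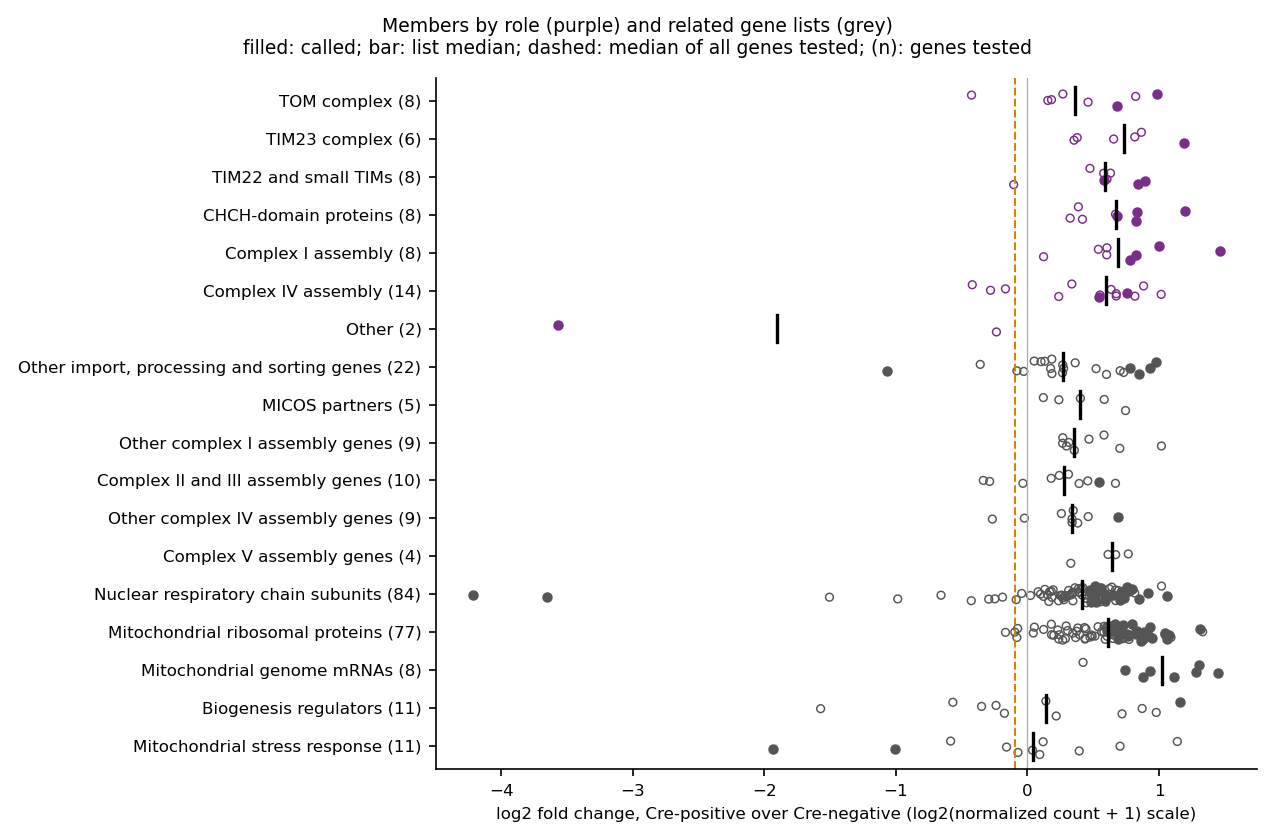
Each circle is a tested gene at its log2 fold change, Cre-positive over Cre-negative (x axis), for the members by role (purple) and the related lists (grey), with bars at list medians, a dashed line at the median of all genes tested (-0.10) and filled circles where a gene was called. The medians of the 6 complexes and routes lie between 0.37 and 0.74, that of mitochondrial genome mRNAs lies at 1.02, and those of the stress response and the biogenesis regulators lie near 0.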

How the data were processed

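The authors deposited 1 table of 55536 genes for the 7 libraries. Per the file headers it holds normalized counts, in which the authors scaled gene counts by a size factor per library to give a signal, together with variance-stabilized values on a log2 scale, a log2 fold change, a p-value, an adjusted p-value and a GC percent. Per the submitters' processing notes, STAR 2.7.9a and DESeq2 were used with GRCm39. Which tool counted reads, and whether by strand, is not given in the sources used here. Coordinates in the deposited table equal those of GENCODE M21 on GRCm38 for 95.2% of 52403 genes and for 51 of the 55 members, and are printed as deposited.

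The members and lists were chosen with earlier results of these data known. Limma 3.58.1 with an intensity trend was run in R 4.3.3 on log2(normalized count + 1) for genes with a mean of at least 5, Cre-positive against Cre-negative, with Benjamini-Hochberg adjustment over all 22878 genes. Fold changes on this scale understate changes of low genes. Values in every library were given for the 8 called members with the largest fold change in each direction, the uncalled member with the largest one, and a set of members picked by role. From each related list at most the 2 called genes with the largest change were named, and Gfer and Fgf21 beside them, chosen after their values were seen.

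Reads were worked back from the normalized counts (100% of values whole within 0.0501 normalized counts), for edgeR 4.0.16, DESeq2 1.42.0 and limma-voom as alternatives. Other alternatives were the pseudocount (0.5, 5), the filter (none, 20), library total scaling, a term for the sample number range or the Y-linked level, and leaving out each library. Exon length and overlap came from GENCODE M21. A member was marked uncertain where over 50% of its exon bases lie in another gene's exons or where BLAST 2.17.0 found a copy of at least 95% identity over 30% of a transcript. The test was tried on simulated data first.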

Additional observations from a re-analysis of the deposited data

Results flagged for a closer look

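In groups of 4 libraries, 6 member values lay far from the other 3 by Dixon's test, which marks about 1 in 20 such groups by chance. Timm10 had 569.3 normalized counts in Cre-negative 48, below 695.8 to 718.2 in the other Cre-negative libraries. In Cre-negative 75, Chchd3 (511.7) and Coa5 (531.5) were below the rest of their group, and Coa4 (174.8) and Tomm34 (502.7) above it. Timm8a2 had 18.7 in Cre-negative 48 and at most 2.5 in the other 3. The Cre-positive group, with 3 libraries, was not examined this way.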

How the results depend on the processing

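Members called higher numbered 16, and 13 to 16 with pseudocounts of 0.5 or 5, a minimum mean of 20, edgeR, DESeq2, limma-voom or a term for the number range. They numbered 10 with no filter on low values, 5 under library total scaling, 3 with the term for the Y-linked level, and 4 to 11 when a library was left out. Shares of all genes called were not computed for the pseudocounts, the filters, limma-voom and the number-range term. Members called lower numbered 1, but 2 under library total scaling, 0 in limma-voom, 0 with the Y-linked term and 0 to 1 when a library was left out. The median log2 fold change of the members was 0.60, 0.40 under library total scaling, 0.43 with the Y-linked term and 0.47 to 0.67 when a library was left out. Of the 17 called members, 3 kept their call in all 17 alternatives. Signs turned for 8 uncalled values: Tomm40 (-0.0197), Tomm70a (-0.0484) and Ndufaf8 (-0.0807) under library total scaling, Timm29 with the Y-linked term (0.0356) and without Cre-negative 48 (0.0014), and Tomm40 (-0.0717), Cox15 (0.0338) and Timm29 (0.128) without Cre-positive 80. When a library was left out, Tomm40 ranged from -0.0717 to 0.346, Cox15 from -0.525 to 0.0338 and Timm29 from -0.282 to 0.128. The causes were not tested. None of the 8 members of uncertain counting, chosen after seeing the data, was called. Leaving them out therefore could not change the 16 called higher and 1 lower. No paired analysis was possible because the groups share no replicate number. With 3 and 4 libraries, differences of members under 100 normalized counts were poorly resolved, as standard errors near 0.7 to 0.9 for Cox11, Tomm40l, Tomm6 and Tomm20l show.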

Other observations

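The authors' deposited table gives its own comparison, as Cre-negative over Cre-positive. It holds an adjusted p for 48 of the members, and 17 of those were under 0.05 with the higher level in Cre-positive libraries and 1 with the lower level. Of these 18 and the 17 called here, 16 were called by both.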
